A study of Mus musculus with 8 samples.

Results

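The genes described here encode the nuclear subunits of the mitochondrial respiratory chain and ATP synthase. They were chosen by the start of the gene name in the array files (Ndufa, Ndufb, Ndufc, Ndufs, Ndufv, Sdh, Uqcr, Cox4 to Cox8 and Atp5). Of 83 such genes, 80 had a probe well above background on at least 2 of the 8 arrays, by the mark that the scanner software gives each spot, and were kept among 15030 genes tested (0.532%). The brightest probe stood for each gene. Cox4i2, Cox8b and Cox8c were left out, since no array measured them above background (signals of 5.2 to 16.6, 5.73 to 23.6 and 5.05 to 9.81). The 80 genes comprised 37 of complex I, 4 of complex II, 7 of complex III, 15 of complex IV and 16 of complex V. Cox4nb, a neighbour of Cox4i1 now named Emc8, shares the prefix but is no subunit of the chain.

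Complex I (NADH dehydrogenase) and complex II (succinate dehydrogenase) pass electrons to ubiquinone. Complex III hands them to cytochrome c, and complex IV (cytochrome c oxidase) passes them to oxygen. Protons pumped on the way drive complex V, the ATP synthase. In complex I the redox centres lie in core subunits, whereas accessory subunits help to assemble and stabilise the complex. Hepatocytes hold many mitochondria, and the chain takes up the electrons of fatty acid oxidation. Several complex IV subunits exist as a liver form and a form of heart and skeletal muscle.

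Liver RNA came from AIM+/+ (wild type) and AIM-/- (knockout) mice, both of C57Bl/6 background. AIM is a protein of tissue macrophages encoded by Cd5l. Each genotype had 1 array on normal chow, labelled 0 weeks, and 1 array after 6, 12 and 20 weeks of high-fat diet. The 8 one-colour arrays were therefore 8 groups of 1, and the sources do not say whether RNA was pooled or how old the mice were. The comparison of genotypes asks what loss of AIM does in a liver under dietary fat, and the weeks follow the liver over the diet. In the tests, the 4 weeks stood in for replicates of a genotype and the 2 genotypes for replicates of a week. A p-value then measures only the spread between these arrays, and their number limits the precision.

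The target gene matched the labels, with Cd5l signals of 10544 to 30201 on the wild-type arrays and 90.7 to 171 on the knockout arrays. All 4 wild-type arrays shared one slide and all 4 knockout arrays the other, so slide and genotype cannot be told apart, and diet cannot be told apart from time. Sex-linked signal also differed on both 20-week arrays, so in contrasts that use them it cannot be told apart from 20 weeks of diet. Both 20-week arrays lacked the Y-linked signal of the other 6 arrays, and their Xist signals were 903 in wild type and 892 in knockout. Xist also read 165 on the knockout 6-week array and 66.1 on the wild-type 12-week array, against 5.15 to 11 on the rest. Those 6-week and 12-week arrays carried Y-linked signal as well (Ddx3y 1098 and 1140). All 11 measured hepatocyte markers lay lower on diet in log2 signals scaled by array. Their summed signal, without that scaling, was 826664 to 966300 on chow and 601067 to 826016 on diet. The summed signal of 8 recruited macrophage markers, also without scaling, was 3124 to 3414 on chow and 3577 to 39931 on diet. The part of these shifts in the values below was not tested. In bulk liver, fewer cells of a type and less RNA per cell cannot be told apart.

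Promoter sequences were matched to show which known motifs stand upstream of these genes. All 80 genes matched a RefSeq gene, 5 of them under a newer symbol, and 67 had a promoter window of 250 bases before to 50 bases after the start (GRCm38.p6). On either strand, the letters GCGCANGCG, a motif of NRF1 (nuclear respiratory factor 1), stood in 20 of the 67 windows (29.9%), against 7.03% of the 27025 genes with a window. The ETS-family letters CCGGAAG stood in 17 (25.4%, against 9.93%), and the YY1 letters AANATGGCG in 10 (14.9%, against 2.76%). The letters CAAGGTCA of the estrogen-related receptors stood in 4 (5.97%, against 1.76%). CCAAT was about as frequent in the set (43.3%) as in all genes (41.1%), and TATAAA was less frequent (7.46% against 15.7%). These matches describe letters, not binding.

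The bases upstream of 4 genes are printed in the direction of the gene, 5′ to 3′, with matched letters in capitals. Cox6a1, the liver form of a complex IV subunit, has NRF1 letters at -162, -161 and -117, CCAAT at -74 and ETS letters at -16, counted from the start; the first 2 matches overlap. Its window is chr5:115348959-115349208 on the minus strand. Cox7a1, the muscle form of another complex IV subunit, has only CCAAT, at -137 and -74 (chr7:30183921-30184170, plus strand). Ndufb4, an accessory subunit of complex I, has NRF1 letters at -191, -79 and -22 and CCAAT at -151 (chr16:37654369-37654618, minus strand). Atp5g2, which encodes subunit c of the ATP synthase rotor, has overlapping NRF1 matches at -42 and -41 (chr15:102671048-102671297, minus strand).
Cox6a1: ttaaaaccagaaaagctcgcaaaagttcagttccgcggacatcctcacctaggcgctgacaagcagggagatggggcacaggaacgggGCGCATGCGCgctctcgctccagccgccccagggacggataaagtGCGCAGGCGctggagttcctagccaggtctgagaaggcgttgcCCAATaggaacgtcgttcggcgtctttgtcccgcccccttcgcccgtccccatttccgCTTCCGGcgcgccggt
Cox7a1: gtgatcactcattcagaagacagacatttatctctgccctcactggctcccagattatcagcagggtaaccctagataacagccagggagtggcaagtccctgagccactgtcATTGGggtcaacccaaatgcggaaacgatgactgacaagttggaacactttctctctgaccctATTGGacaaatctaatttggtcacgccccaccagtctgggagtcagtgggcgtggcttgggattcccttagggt
Ndufb4: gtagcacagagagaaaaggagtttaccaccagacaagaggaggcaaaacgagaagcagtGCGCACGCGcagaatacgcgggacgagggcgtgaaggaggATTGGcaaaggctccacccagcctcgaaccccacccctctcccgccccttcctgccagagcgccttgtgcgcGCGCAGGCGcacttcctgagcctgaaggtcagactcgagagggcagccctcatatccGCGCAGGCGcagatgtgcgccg
Atp5g2: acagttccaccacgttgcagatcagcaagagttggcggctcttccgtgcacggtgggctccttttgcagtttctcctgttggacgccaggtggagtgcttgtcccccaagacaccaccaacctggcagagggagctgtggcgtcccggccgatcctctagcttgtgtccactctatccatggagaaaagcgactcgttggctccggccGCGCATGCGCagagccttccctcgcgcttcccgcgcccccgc

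The subunit genes were strongly expressed and varied little. Of the 80, 79 were well above background on all 8 arrays, and no probe was saturated. Values below are log2 signals minus the 75th percentile of the array, so that 0 is that percentile. The middle of the set lay between 5.26 and 7.22 (lower and upper quartile of the gene means). The SD over the 8 arrays had a median of 0.126, against 0.276 over all genes tested and 0.219 over the 709 other genes whose mean signal lay between those quartiles. The distance from the lowest to the highest array was 0.35 at the median, against 0.81 and 0.64. Only Cox7a1 and Cox6a2 (2.5% of the set) spanned 2-fold or more, whereas 38.8% of all genes and 20.2% of the equally bright genes did. Cox6a2 did so only through its wild-type chow value of -3.82, which was not well above background. On the other arrays Cox6a2 read -3.13 to -2.35.

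**Figure D1:**
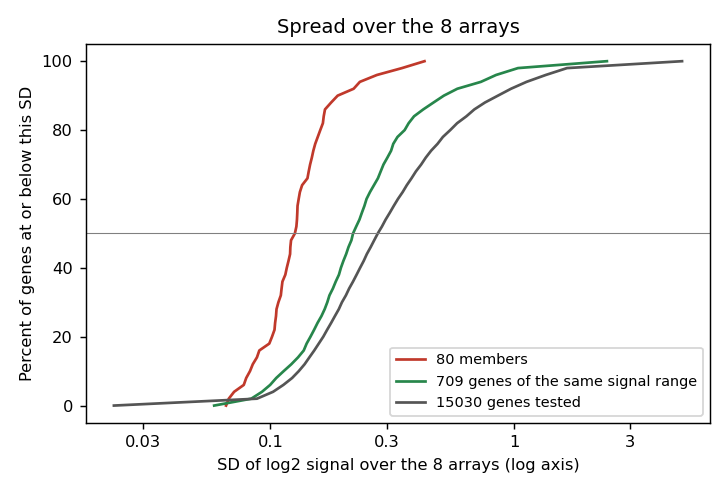
Percent of genes (vertical axis) at or below a given SD of the log2 signal over the 8 arrays (horizontal axis, log scale), for the 80 subunit genes, the 709 equally bright other genes and all 15030 genes tested. The curve of the subunit genes lies to the left of both others above the lowest few percentiles, with its median at 0.126 against 0.219 and 0.276.

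Brightest by probe signal were Ndufa13 in complex I (92035 to 112574), Sdhd in complex II (14167 to 23206), Uqcrq in complex III (148265 to 172884), Cox6a1 in complex IV (189957 to 253703) and Atp5g3 in complex V (96072 to 126457). The dimmest were Ndufa11 (1165 to 1680), Sdha (4367 to 7268), Uqcrfs1 (13735 to 18937), Cox6a2 (18 to 55.4) and Atp5s (496 to 660). These are signals before scaling, and they rank probes rather than transcripts. After scaling, Ndufa13 read 8.62, 8.62, 8.47 and 8.30 in wild type and 8.56, 8.43, 8.56 and 8.41 in knockout at 0, 6, 12 and 20 weeks. Ndufa11 read 2.39, 2.32, 2.12 and 2.04, and 2.29, 2.18, 2.11 and 2.34. Both are accessory subunits of complex I, and both had their lowest value on the wild-type 20-week array.

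No subunit gene passed the threshold (limma, adjusted p under 0.05 over all genes) in any of the 6 contrasts. For knockout minus wild type, 0 of 80 passed against 0.0333% of all genes, and 0 had an unadjusted p under 0.05 against 5.56%. Diet minus chow called 0 of 80 against 2.57% of all genes, and none had an unadjusted p under 0.05 although 25.3% of all genes did. Between chow and 6 weeks 0 were called (background 0.00665%), with 2 at an unadjusted p under 0.05 (background 10.9%). Between 6 and 12 weeks 0 were called (background 0%), with 3 at the unadjusted level (17.8%), and between 12 and 20 weeks 0 (0.113%), with 2 (13.4%). The interaction of genotype and diet called 0 (background 0%), with 0 at the unadjusted level (4.44%). A miss of the threshold with 3 residual degrees of freedom does not show that a gene held its level. The median standard error over the set was 0.107 for genotype, 0.124 for diet, 0.152 for a step between weeks and 0.273 for the interaction.

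**Figure D2:**
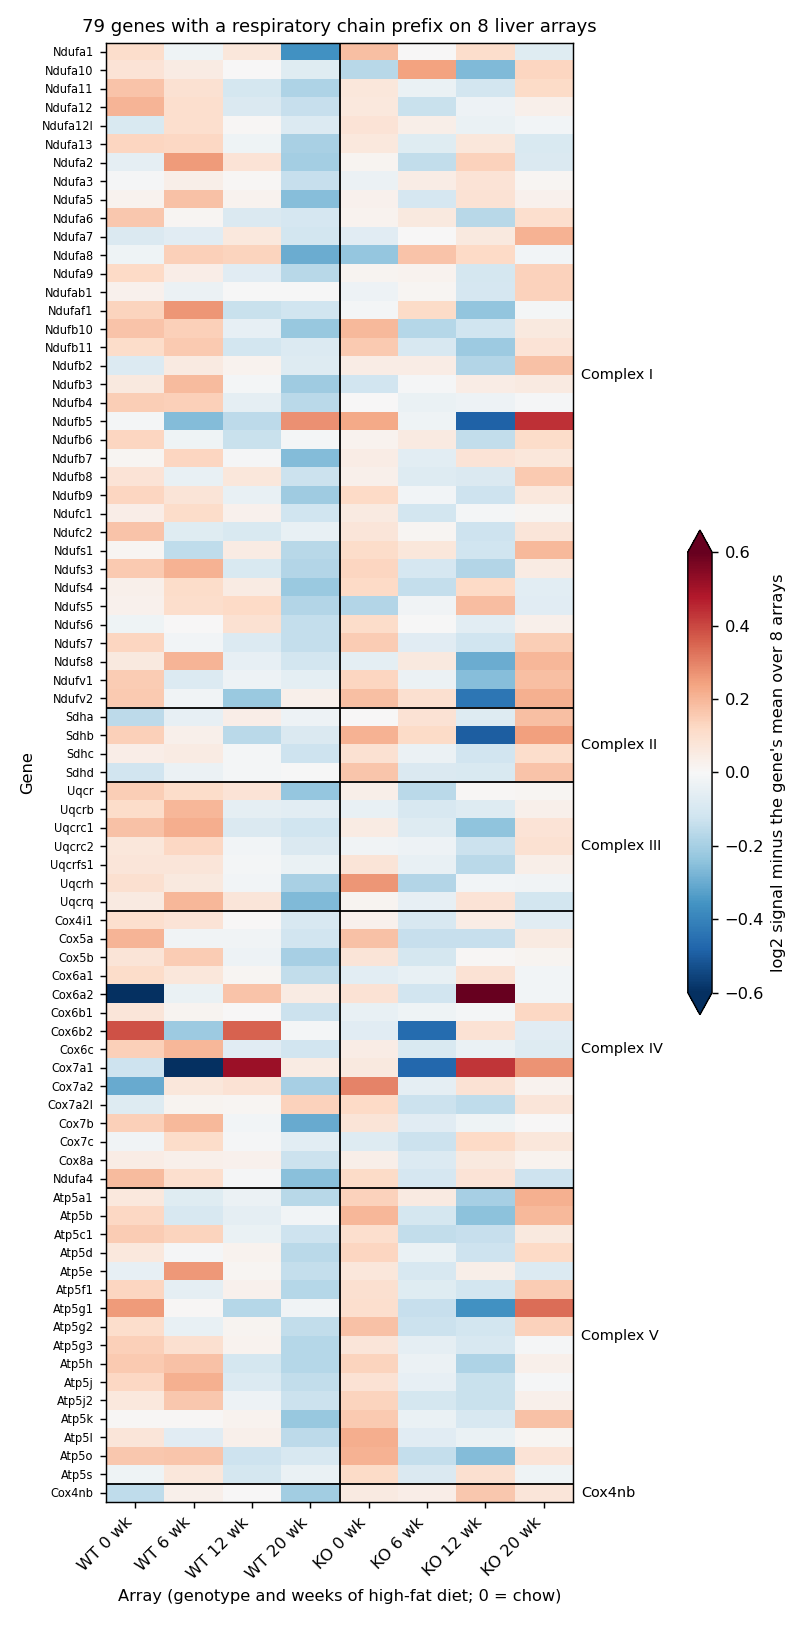
Log2 signal of 79 of the 80 genes (rows, by complex) on each of the 8 arrays (columns, wild type then knockout, by week), minus the mean of the gene; red is higher, blue is lower, and the scale ends at 0.6. The wild-type 20-week column is mostly blue, holding the lowest value of 42 of the 80 genes, and the deepest colours are in Cox7a1, Cox6a2 and Cox6b2 and, on the knockout 12-week array, in Ndufb5, Sdhb and Ndufv2.

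The genotypes were close over the 4 weeks together. The median difference, knockout minus wild type, was 0.011 (43 genes higher, 37 lower), against 0.0017 over all genes and -0.015 over the equally bright genes. With normexp background correction it was 0.046, with 27 genes lower, and with the mean of all probes of a gene it was -0.0050. Without both 20-week arrays it was -0.061, with 64 genes lower. All 4 genes of complex II lay higher in the knockout (median 0.059), and 6 of 7 of complex III lay lower (median -0.046); the adjusted p of every gene in the set was 0.928 or above. The lowest belonged to Cox6b2, a testis form, at -0.25 (SE 0.10). Cox4nb at 0.16 and Ndufa1, an X-linked accessory subunit of complex I, at 0.11 were higher in the knockout in every week.

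On diet, 63 of 80 genes lay lower than on chow, by a median of -0.10, against 52.6% lower and -0.022 over all genes. The equally bright genes lay lower by nearly as much (median -0.098, 63.3% lower). The size depended on the scaling, with a median of -0.019 and 47 genes lower after quantile normalization, and -0.034 and 49 lower when arrays were centred on the bright genes outside the set. Without the wild-type 20-week array the median was -0.067, and without the knockout 20-week array -0.15. The lowest adjusted p was that of Cox5a, a nuclear-encoded complex IV subunit, which read 7.75, 7.52, 7.52 and 7.43 in wild type and 7.72, 7.41, 7.41 and 7.60 in knockout at 0, 6, 12 and 20 weeks. Each of the 6 diet arrays lay below both chow arrays, a difference of -0.25 (SE 0.11, adjusted p 0.239 by limma). Atp5o, the stalk protein that carries oligomycin sensitivity, and Ndufb10, an accessory subunit of complex I, differed by -0.25 each as well (adjusted p 0.313 and 0.346). Among genes measured on all arrays, the largest positive differences with 1 sign in both genotypes were Ndufa8 at 0.17 and Ndufa7 at 0.10.

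**Figure D3:**
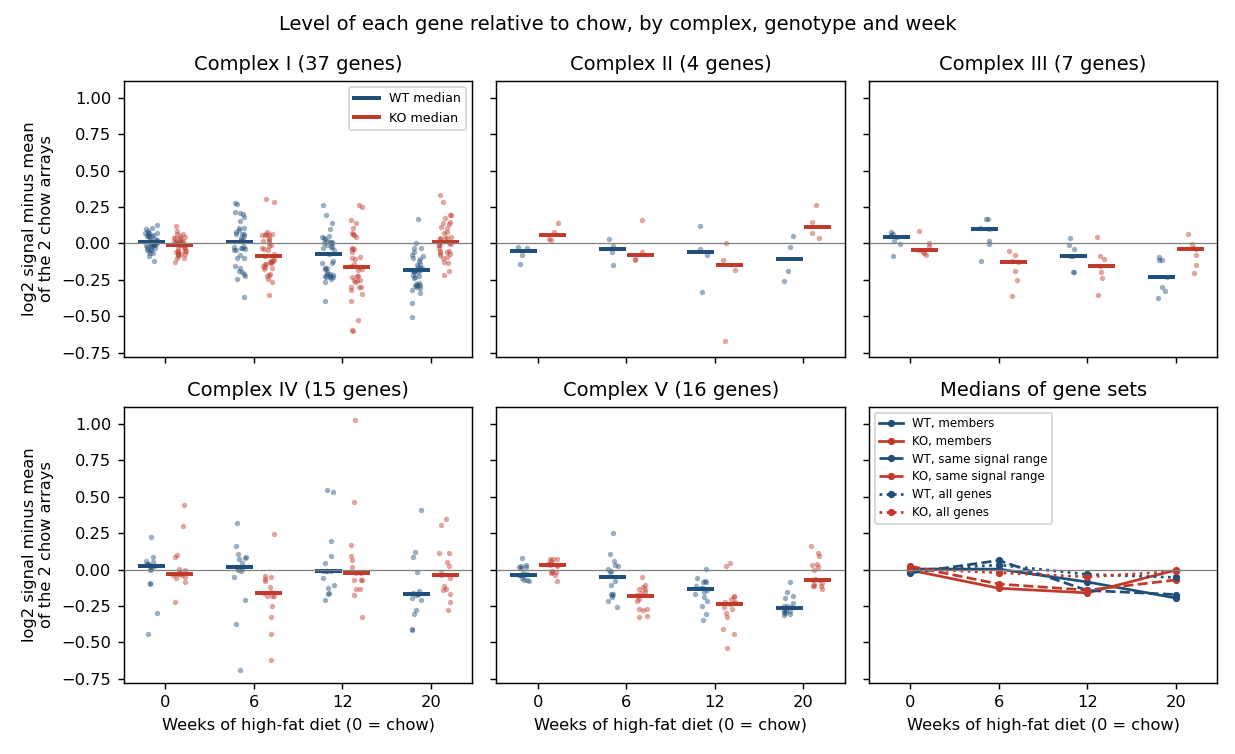
Log2 signal of each gene minus its mean over the 2 chow arrays (vertical axis) by week of diet (horizontal axis; 0 is chow), in 1 panel per complex, with points for genes and bars for medians (blue wild type, red knockout). The last panel gives medians of the 80 genes, of the 709 equally bright genes and of all genes; the subunit medians end at -0.20 in wild type and -0.0030 in knockout at 20 weeks.

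In complex I, the 7 core genes had a diet median of -0.19 with 6 lower, and the 28 accessory genes -0.081 with 19 lower; across the scalings run the core median stayed between -0.19 and -0.11, while the accessory median reached 0.023 after quantile normalization. The difference between both classes was not tested. On the knockout 12-week array all 7 core genes lay below the knockout chow array (median -0.30), as did 6 of 7 on the wild-type 12-week array (median -0.19). Against these, the accessory genes had medians of -0.084 and -0.055. On the knockout 12-week array all 16 complex V genes (median -0.26) and all 4 of complex II (-0.23) lay below chow as well. So did 7 of 15 complex IV genes (0.017) and 62.9% of the equally bright genes (-0.16). From 12 to 20 weeks all 7 core genes had a positive difference (median 0.21), which held under every scaling run, and none was called. That step averages both genotypes, which did not share one course. Relative to the mean of the 2 chow arrays, the core median was -0.22 at 12 weeks and -0.20 at 20 weeks in wild type. In knockout it was -0.32 and 0.044.

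Ndufv2, an iron-sulfur core subunit, read 3.46, 3.28, 3.07 and 3.33 in wild type and 3.48, 3.40, 2.87 and 3.51 in knockout at 0, 6, 12 and 20 weeks. Its lowest value was on the knockout 12-week array and its highest on the knockout 20-week array. It differed by -0.37 from 6 to 12 weeks (adjusted p 0.30) and by 0.45 from 12 to 20 weeks (SE 0.15, adjusted p 0.330, limma). Ndufb5, an accessory subunit of the membrane arm, read 2.42, 2.17, 2.27 and 2.71 in wild type and 2.66, 2.40, 1.94 and 2.87 in knockout. Its 20-week values lay above those of every other week in both genotypes, 0.68 above 12 weeks (SE 0.19, adjusted p 0.299), with adjusted p no lower than 0.139 under any setting of the processing.

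Ndufa8, an accessory subunit of the membrane arm, went the other way, with 5.83, 6.00, 5.99 and 5.56 in wild type and 5.63, 6.03, 5.98 and 5.84 in knockout. Its difference of 0.29 from chow to 6 weeks had an adjusted p of 0.568. The assembly factor Ndufaf1 differed by -0.37 from 6 to 12 weeks (adjusted p 0.259), from 3.45 to 3.05 in wild type and from 3.30 to 2.95 in knockout. Ndufa1 was -0.31 from 12 to 20 weeks (adjusted p 0.410), with its lowest value, 6.75, on the wild-type 20-week array. Ndufs8, an iron-sulfur core subunit, was 0.13 higher at 6 weeks than on chow, with an adjusted p of 0.812.

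The 4 genes of complex II, which also belongs to the citric acid cycle, had a diet median of -0.062, and this turned to 0.0050 when arrays were centred on bright genes. Sdhb, the iron-sulfur subunit, read 5.86, 5.75, 5.56 and 5.64 in wild type and 5.93, 5.84, 5.23 and 5.97 in knockout. Its knockout 12-week value stood below the other 7, and the difference of -0.40 from 6 to 12 weeks (SE 0.19, adjusted p 0.359) ranged from -0.65 to -0.15 when single arrays were left out. The flavoprotein Sdha read 4.11, 4.22, 4.31 and 4.24 in wild type and 4.27, 4.36, 4.19 and 4.45 in knockout. The kept Sdha probe gave a diet difference of 0.10 and a dimmer second probe -0.22. That gap was the widest in the set among further probes that were well above background on all arrays. Some dimmer probes measured on fewer arrays lay further from the kept probe of their gene. The membrane anchor Sdhc read 4.70, 4.71, 4.65 and 4.54 in wild type and 4.75, 4.62, 4.54 and 4.77 in knockout. Sdhd, the other anchor, read 5.84, 5.92, 5.94 and 5.95 in wild type and 6.12, 5.87, 5.86 and 6.13 in knockout. Of the 4 genes, Sdhb had the widest range over the arrays (0.74), and Sdhc the narrowest (0.23).

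All 7 genes of complex III lay lower on diet (median -0.10), but 4 of 7 did after quantile normalization or centring on bright genes. Uqcrh, the hinge protein near cytochrome c1, had the largest difference (-0.24, SE 0.13, adjusted p 0.304). Uqcrfs1, the Rieske iron-sulfur protein, read 5.87, 5.87, 5.79 and 5.76 in wild type and 5.88, 5.75, 5.64 and 5.83 in knockout, a range of 0.24. Uqcrq, a small subunit, read 9.19, 9.34, 9.21 and 8.87 in wild type and 9.16, 9.09, 9.22 and 9.02 in knockout.

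By range over the arrays, complex IV held both the steadiest and the most variable genes. Cox8a, a liver form, had the narrowest range of the set (0.19), with 8.04, 8.03, 8.03 and 7.87 in wild type and 8.04, 7.92, 8.06 and 8.02 in knockout. Cox4i1, the main regulatory subunit, read 8.55, 8.53, 8.45 and 8.35 in wild type and 8.47, 8.35, 8.49 and 8.38 in knockout. Cox6a1 read 9.71, 9.66, 9.61 and 9.45, and 9.53, 9.55, 9.68 and 9.58. Cox6b1, the somatic form, read 2.88, 2.82, 2.81 and 2.67, and 2.76, 2.78, 2.79 and 2.93. Each of these 4 common forms stayed within a range of 0.26, and the 15 genes had a diet median of -0.053 (11 lower), which turned to 0.015 on centring on bright genes.

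**Figure D4:**
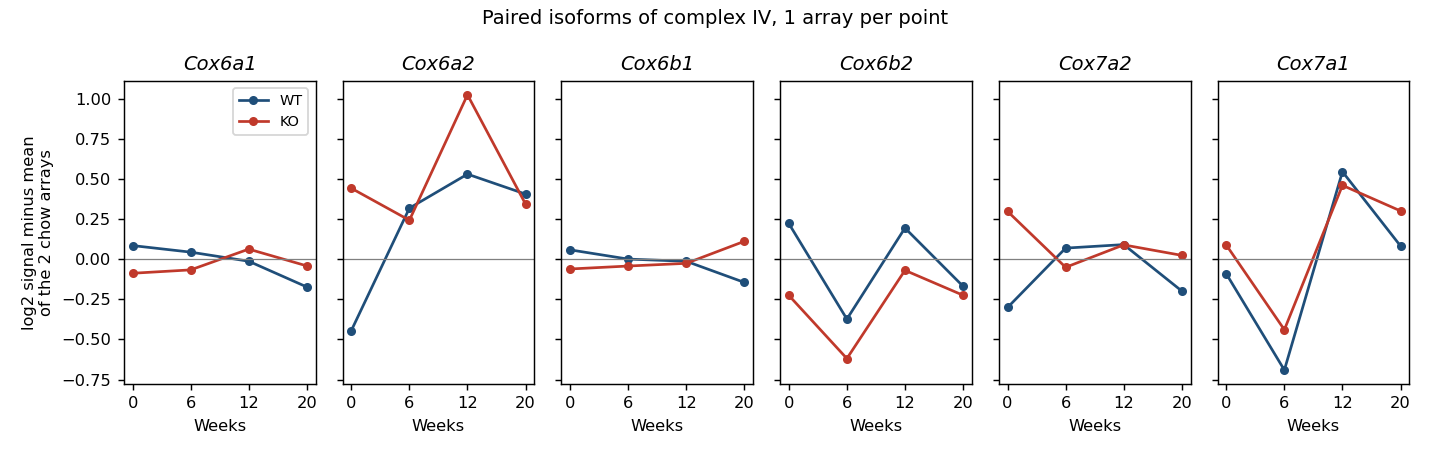
Log2 signal of 6 complex IV genes minus the mean of the 2 chow arrays (vertical axis) by week of diet (horizontal axis), 1 array per point, wild type in blue and knockout in red. Cox6a1 and Cox6b1 stay near 0, whereas Cox7a1 dips at 6 weeks and stands high at 12 weeks in both genotypes; the wild-type chow point of Cox6a2 was not well above background.

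Cox7a1, the heart and skeletal muscle form of subunit 7a, had the most marked course. It read 2.23, 1.63, 2.87 and 2.40 in wild type and 2.41, 1.88, 2.78 and 2.62 in knockout, with signals of 724 to 2046. Both 6-week arrays were the lowest and both 12-week arrays the highest of the 8, while the chow and 20-week arrays overlapped between them. The difference was -0.56 from chow to 6 weeks (SE 0.15, adjusted p 0.317) and 1.07 from 6 to 12 weeks (SE 0.15, unadjusted p 7.0e-04, adjusted p 0.119, limma). Over all settings of the processing the second ran from 1.03 to 1.17 with adjusted p no lower than 0.0697, and from 0.92 to 1.22 with arrays left out. Its probe spans chr7:29894078-29894689 on mm8, the build of the array files. Of 12 muscle markers, 4 were measured, with summed signals of 219 to 344. Myh6, Myl1, Tnnt3 and Mb were above background on no array, and Ckm and Acta1 on at most 1.

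Cox7a2, the liver form, read 6.63, 7.0, 7.02 and 6.73 in wild type and 7.23, 6.88, 7.02 and 6.95 in knockout. Its chow arrays stood furthest apart, the wild type lowest and the knockout highest of the 8, with an interaction of -0.57 (SE 0.27, adjusted p 1, limma). A second Cox7a2 probe gave a diet difference of -0.24 where the kept probe gave 0.0055. Cox7a2l, a factor that joins complexes III and IV, read 3.48, 3.57, 3.57 and 3.70, and 3.67, 3.43, 3.40 and 3.63, an interaction of -0.32. Ndufa4, named for complex I but now assigned to complex IV, read 7.23, 7.14, 7.03 and 6.78, and 7.15, 6.94, 7.12 and 6.91, lower by -0.20 on diet (adjusted p 0.337). Ndufa4l2 is not analysed here.

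Cox6b2, the testis form, read -1.46, -2.05, -1.49 and -1.85 in wild type and -1.91, -2.30, -1.75 and -1.90 in knockout. It was lowest at 6 weeks in both genotypes, with differences of -0.50 from chow to 6 weeks (adjusted p 0.366) and 0.56 from 6 to 12 weeks (adjusted p 0.176). Cox6a2, the muscle form, read -3.82, -3.05, -2.84 and -2.97 in wild type and -2.93, -3.13, -2.35 and -3.03 in knockout, at signals of 18 to 55.4, near the background. It was not well above background on the wild-type chow array. Set against the lowest signal marked well above background on that array, the knockout chow value was 1.45-fold higher. The mark is given spot by spot, so this is a guide and not a firm bound. Its differences that use that array are therefore not given.

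All 16 complex V genes lay lower on diet (median -0.15), the largest shift of a complex, and 14 of 16 still did after quantile normalization (median -0.057) or centring on bright genes (-0.078). The 5 genes of the F1 head and central stalk had a median of -0.13 and the 10 of the Fo part and peripheral stalk -0.17. Atp5b, the catalytic beta subunit, read 8.43, 8.21, 8.25 and 8.29 in wild type and 8.51, 8.20, 8.06 and 8.50 in knockout, a diet difference of -0.22 (adjusted p 0.325). Atp5g1 encodes subunit c of the rotor ring, as do Atp5g2 and Atp5g3. It read 6.56, 6.32, 6.14 and 6.29 in wild type and 6.41, 6.17, 5.95 and 6.65 in knockout, and differed by 0.42 from 12 to 20 weeks (adjusted p 0.405). Its knockout 20-week array was the highest of the 8 and its knockout 12-week array the lowest. Atp5g3 read 8.72, 8.68, 8.60 and 8.41, and 8.65, 8.53, 8.49 and 8.57. Atp5s, an assembly factor now named Dmac2l, read 0.99, 1.08, 0.91 and 0.98, and 1.13, 0.93, 1.11 and 0.99, with no common course in the 2 genotypes.

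The steps between weeks were small as well. From chow to 6 weeks the median was -0.069 (58 of 80 lower), against -0.016 over the equally bright genes, and it was 0.017 without the knockout 6-week array. From 6 to 12 weeks it was -0.040 (49 lower), against -0.092 over the equally bright genes. The sign for the 80 genes turned after quantile normalization (0.052, 25 lower) and on centring on bright genes (0.058, 26 lower). It also turned without the wild-type 6-week array (0.042). From 12 to 20 weeks the median was 0.019 (44 higher), against -0.013 over the equally bright genes. In that step 12 of 15 complex IV genes were lower (median -0.10) and all 4 of complex II higher (0.12). The complex II step averages both genotypes. Relative to the chow mean, its median went from -0.059 to -0.11 in wild type and from -0.15 to 0.11 in knockout. For all 80 genes, the step from 12 to 20 weeks was -0.13 without the knockout 20-week array. It was 0.16 without the wild-type 20-week array and -0.035 without the knockout 12-week array. The interaction of genotype and diet had a median of 0.027, with 27 of 37 complex I genes positive and 12 of 16 complex V genes negative. The complex V median was -0.039. Of the equally bright genes 59.7% were negative, with a median of -0.076. For the 80 genes, the median without the wild-type 20-week array was -0.033, and without the knockout one -0.036. Among genes measured on all arrays, the interaction was furthest from 0 in Cox7a2 and Cox7a2l on the negative side, and in Ndufa8 (0.30), Ndufa10 (0.29) and Cox6b2 (0.26) on the positive side, each with an adjusted p of 1.

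Within single weeks, 1 array stood against 1, so no test was made. At 20 weeks 77 of 80 genes lay higher in the knockout, by a median of 0.183, in all 5 complexes (0.20 in I, 0.22 in II, 0.17 in III, 0.13 in IV, 0.19 in V). The equally bright genes lay 0.099 higher (77.6% of them), and all genes 0.030 (55.4%). Under the other settings run, the subunit median stayed between 0.087 and 0.25, with 70 to 77 genes higher. None reached 1.5-fold, which 9.83% of all genes did. The largest were Atp5k, subunit e, at 0.40, Atp5a1, the alpha subunit of F1, at 0.38 and Ndufs1, an iron-sulfur core subunit, at 0.36. The 3 lower genes were Cox7a2l, Cox6a2 and Cox6b2, at -0.068 to -0.056. Neither the summed hepatocyte signal (794882 and 826016 in wild type and knockout at 20 weeks) nor that of recruited macrophage markers (29240 and 21702) was tested for a part in this. Both are sums of signals before scaling.

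**Figure D5:**
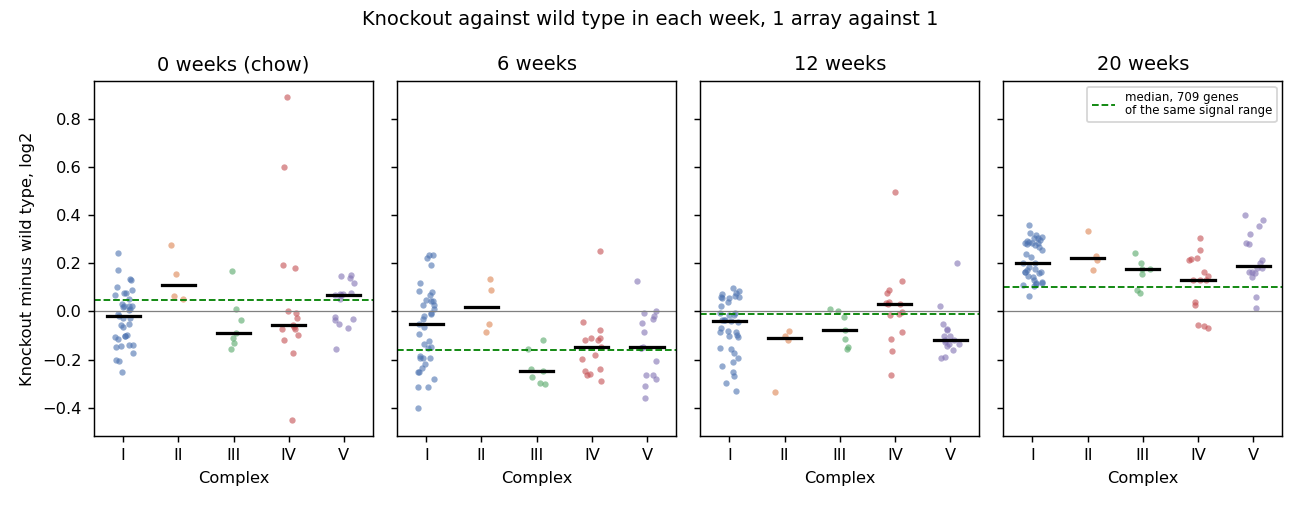
Knockout minus wild type in log2 units (vertical axis) for each gene, by complex (horizontal axis) and week (panels), with black bars for medians of complexes and a dashed line for the median of the 709 equally bright genes. At 20 weeks all points of complexes I, II, III and V lie above 0.

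Set against their own chow arrays, the genotypes parted at 20 weeks. On the wild-type 20-week array 71 of 80 genes lay below the wild-type chow array (median -0.23), against 69.8% of the equally bright genes (median -0.16). On the knockout 20-week array 41 of 80 lay below the knockout chow array (median -0.0013), against 59.9% (median -0.10). The wild-type 20-week array held the lowest value of 42 genes (52.5%, against 25.8% of equally bright genes), and the knockout 12-week array that of 24 (30.0%, against 24.1%). The knockout 20-week array held the lowest value of 0 genes (3.7% of equally bright genes) and the highest of 19 (23.8%, against 8.7%), and the wild-type 6-week array held the highest of 20 (25%, against 23.0%).

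At 6 weeks 60 of 80 genes lay lower in the knockout (median -0.12), the opposite sign of 20 weeks, beside -0.16 for the equally bright genes. That sign depended on the scaling: the median was -0.0090 with 40 genes lower after quantile normalization and 0.057 with 30 lower on centring on bright genes, which moved the median of all genes from -0.046 to 0.13. None of the 80 reached 1.5-fold at 6 weeks (15.9% of all genes did) or at 12 weeks (10.9%), where the median was -0.074 and 57 were lower. Of the equally bright genes, 46.8% lay higher in the knockout at 12 weeks (median -0.012). The 7 core genes of complex I were all lower in the knockout at 12 weeks, by a median of -0.21, under every scaling run. This was not particular to them. In the main scaling all 4 genes of complex II (-0.11) and all 10 of the Fo part and peripheral stalk (-0.12) were lower too. In complex IV, 8 of 15 were higher (median 0.030). Among the largest at 6 weeks were Cox7a1 (0.25) and Ndufb5 (0.23) on the higher side, and Ndufa2 (-0.40), Atp5e (-0.36) and Ndufb10 (-0.32) on the lower side. At 12 weeks they included Cox6a2 (0.50) and Atp5s (0.20), and Sdhb (-0.33) and Ndufb5 (-0.33). On chow Cox7a2, at 0.60, reached 1.5-fold between arrays that both measured it (16.3% of all genes reached 1.5-fold by their listed values). Cox6a2 was not well above background on the wild-type chow array. The chow median was -0.0090 (0.040 with normexp, 49 genes higher in place of 39). Sdhd (0.28) and Ndufb5 (0.24) came next, and Cox6b2 (-0.45), Ndufa10 (-0.25) and Ndufa8 (-0.21) were lowest.

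The subunit genes varied together over the arrays. The median correlation between pairs of the set was 0.41 over the 8 arrays, against 0.14 among the equally bright genes and 0.0090 among all genes, a description with arrays and scaling shared. By complex it was 0.41 in I, 0.55 in II, 0.58 in III, 0.31 in IV and 0.65 in V. Of the 80, 56 had a correlation over 0.5 with the median of the others, led by Ndufb9 (0.97) and Ndufb10 (0.96). The 3 with a negative value were Cox6a2 (-0.55), Cox7a1 (-0.27) and Ndufs5 (-0.053). That of Cox6a2 includes its wild-type chow value, which was not well above background. Diet medians were close with and without NRF1 letters in the promoter (-0.12 in 20 genes and -0.10 in 47).

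Genes around the chain were taken from lists, and 1 of them passed in any contrast. Ucp2, an uncoupling protein of the inner membrane that macrophages also express, had signals of 134, 166, 647 and 919 in wild type and 145, 283, 628 and 618 in knockout at 0, 6, 12 and 20 weeks. It rose on diet by 1.64 (SE 0.21, adjusted p 0.0454, limma), and it was the 1 called among 17 carriers, porins and uncoupling proteins (median 0.090), where 2.57% of all genes were called on diet, so that 0 or 1 in lists of these sizes is near the background. None passed among 10 subunits and electron carriers outside the name rule such as Cyc1 and Cycs (diet median -0.042), 22 assembly factors (0.056), 22 regulators of mitochondrial biogenesis (-0.11), 19 enzymes of the citric acid cycle (0.18) and 8 genes of coenzyme Q synthesis (0.10). Nor did any of 10 mitochondrial superoxide and peroxide genes (-0.077) or of 28 genes of fusion, fission and turnover (-0.11). The 75 genes of the mitochondrial ribosome had a diet median of -0.037 with 49 lower, and the 78 of the cytosolic ribosome -0.32 with 77 lower; neither list held a called gene.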

How the data were processed

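Total liver RNA was labelled and hybridised to 8 one-colour Agilent Whole Mouse Genome arrays, 1 per genotype and week, per the labels' protocols. The deposited scanner files hold background-subtracted spot intensity values from Feature Extraction (9.5 per the submitters' processing notes, 9.5.3.1 per the file headers), with probe positions on mm8. The deposited value table holds log2 values that correlate with the scanner values at 0.999998 or more; its column medians are -3.605 to -3.416, and its scaling is not given in the sources used here. Array precision is limited by the number of arrays.

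Log2 intensity minus the 75th percentile of each array was computed, without 1639 control spots and 75 to 130 outlier spots per array. Of 41174 probes, 21388 were well above background on at least 2 arrays, and the brightest probe stood for each of 15030 genes. Limma 3.58.1 in R 4.3.3 fitted week and genotype together (3 residual degrees of freedom), and the interaction in a model of 4 cells, in which the lone chow array of a genotype is assumed to vary like the others. P-values were adjusted by Benjamini-Hochberg over all genes, at 0.05. Single weeks used 1.5-fold and no test. The fit was tested on simulated data.

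Named genes were, per contrast, those past the threshold or else the 3 largest in each direction with 1 sign throughout, plus complex IV isoforms, complex II and the brightest and dimmest gene of each complex. One gene of the set is not reported by name here; it is counted in the totals. Members and lists were chosen with earlier results of these data known. Alternatives were background correction, normalization, scaling, filters, probe rule, moderation, source of values and left-out arrays.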

Additional observations from a re-analysis of the deposited data

Results flagged for a closer look

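The median difference of the 80 subunit genes, knockout minus wild type, was -0.12 at 6 weeks and 0.183 at 20 weeks, so that most genes lay on opposite sides of 0 in the 2 weeks. Each week rests on 1 array per genotype, and the difference between the weeks was not tested. The 6-week sign depended on the scaling (0.057 on centring on bright genes), while the 20-week sign was positive under every setting run. The equally bright genes had medians of -0.16 and 0.099 in the same weeks.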

How the results depend on the processing

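No subunit gene was called in any of the 6 contrasts under any alternative run. The diet median of -0.10 was -0.080 with normexp, -0.019 after quantile normalization and -0.034 when arrays were centred on bright genes outside the set, an alternative chosen after seeing the data; with arrays or weeks left out it ran from -0.147 to -0.067. The step from chow to 6 weeks ran from -0.162 to 0.017 with arrays left out. The step from 6 to 12 weeks was 0.052 after quantile normalization and 0.058 on bright genes, and ran from -0.128 to 0.042 with arrays left out. The cause of these moves was not tested. With arrays left out, the genotype median ran from -0.061 (without both 20-week arrays) to 0.043, the step from 12 to 20 weeks from -0.126 to 0.163, and the interaction from -0.087 to 0.092. Of single-week counts, 2 genes were past 1.5-fold on chow by listed values (Cox7a2, and Cox6a2, which was not well above background in wild type). These 2 became 0 at 2-fold and 1 with normexp, quantile normalization or a filter for all arrays. The 0 at 12 weeks became 1 with the mean of all probes. No paired analysis was possible because the groups share only replicate number 1; by week, the genotypes were already compared within weeks, and without that week block the genotype median was again 0.011. Slide as a block was not run, since it equals genotype.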

Other observations

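Probes of 2 mitochondrially encoded subunits were also on the arrays, chosen after their values were seen. COX2, the copper-bearing subunit of complex IV, had signals of 206807 to 227988 and a diet difference of -0.087 on the log2 scale. ND4L, a membrane subunit of complex I, had signals of 62121 to 76766 and a diet difference of -0.0090. At 20 weeks, 72 of 75 genes of the mitochondrial ribosome and 17 of 19 of the citric acid cycle lay higher in the knockout (medians 0.17 and 0.20), against 44 of 78 of the cytosolic ribosome (0.014). Of the equally bright genes, 77.6% lay higher (median 0.099), as did 12 of 17 carriers, porins and uncoupling proteins (0.044). Before scaling, Cyc1, cytochrome c1 of complex III, had signals of 31073 and 44172 at 20 weeks in wild type and knockout. On chow they were 31739 and 34135. Signals before scaling do not give a change between arrays. For Ndufa13 in wild type, 100301 on chow scaled to 8.62 and 100447 at 20 weeks to 8.30.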
